A study of Mus musculus with 4 samples.

Results

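The Eph receptors described here are the 10 genes Epha2, Epha3, Epha4, Epha5, Epha7, Epha8, Ephb1, Ephb2, Ephb3 and Ephb4, taken by gene name from a table of 56883 mouse genes. The list holds 6 class A and 4 class B receptors, and leaves out 4 further Eph genes (Epha1, Epha6, Epha10 and Ephb6), which are given only for comparison. RNA was sequenced from tdTomato-positive cells sorted from the basal telencephalon of mouse embryos at embryonic day E14.5, in 2 libraries per genotype. Control embryos were Sst-Cre/tdTomato and knockout embryos were Sst-Cre/tdTomato/Dnmt1 loxP2 (Dnmt1 KO), so both genotypes carried the Cre driver and the reporter and only the knockout carried the floxed alleles of Dnmt1, the DNA methyltransferase that copies CG methylation onto newly made DNA. Cre is made from the somatostatin (Sst) locus, and tdTomato marks every cell in which Cre has acted and the cells descending from it. Each library came from cells pooled over several embryos, so the spread between libraries is a spread between pools and not between single embryos. The question put to these data was how the level of each Eph receptor RNA differed between Dnmt1 KO and control cells, class A beside class B.

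Eph receptors are the largest family of receptor tyrosine kinases. They bind ephrins, which sit in the membrane of neighbouring cells, so a signal passes only where cells touch, and it can run into the receptor-bearing cell and, as reverse signalling, into the ephrin-bearing cell. Class A receptors mainly bind ephrin-A ligands, which are held in the membrane by a lipid anchor, and class B receptors mainly bind ephrin-B ligands, which cross the membrane, with EphA4 able to bind both kinds. Contact often ends in repulsion, and in the ventral forebrain Eph and ephrin proteins are known to help steer interneurons born in the medial ganglionic eminence (MGE) toward the cortex. In blood vessels, EphB4 and ephrin-B2 are known for keeping veins and arteries apart.

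Of the 10 receptors, 9 had a mean of 10 or more normalized counts over the libraries, the filter on low values, and were tested. Epha5 and Epha3, both class A, rose in Dnmt1 KO, whereas Ephb1 and Ephb4, both class B, fell. The other 5 tested receptors did not pass the threshold of 0.05 on the adjusted p, and Epha2 was too low to test. Among all 14323 genes tested with limma and Benjamini-Hochberg adjustment, 8.30% rose, 8.99% fell and 17.3% changed in either direction, against 2, 2 and 4 of the 9 receptors. All 5 tested class A receptors had a positive log2 fold change, with a median of 0.23, while 2 of the 4 class B receptors were positive and 2 negative, with a median of -0.29, beside a median of -0.0033 over all genes tested. With so few genes a class, these counts describe the 9 receptors only, and the difference between the classes was not tested.

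**Figure D1:**
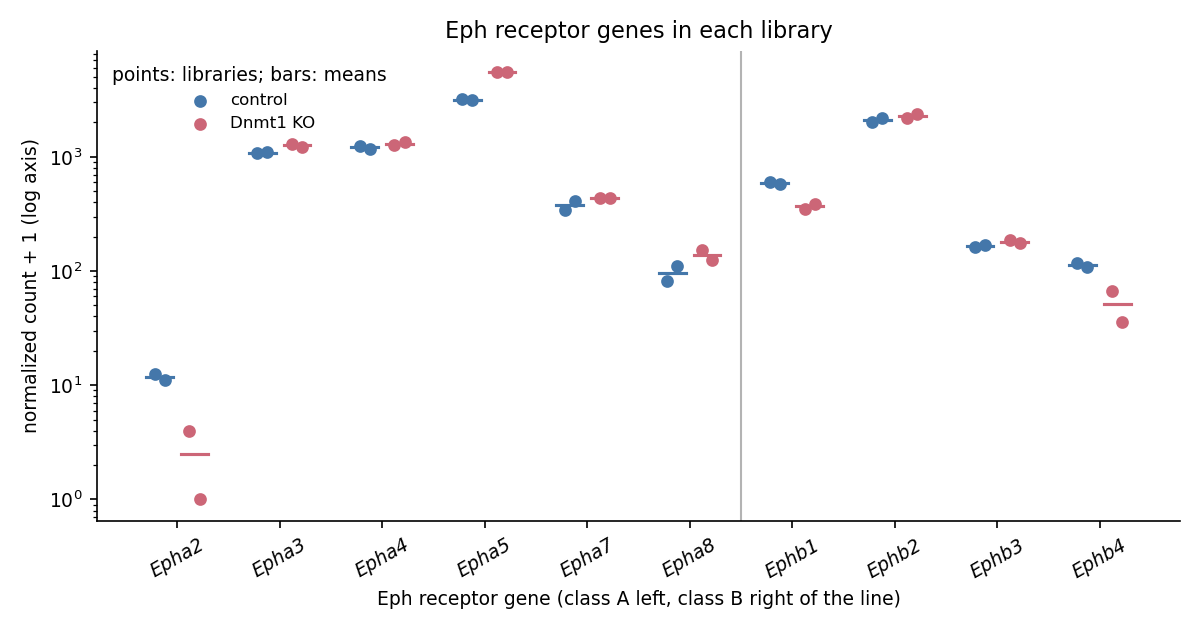
Normalized count plus 1 (log axis) of the 10 Eph receptor genes (horizontal axis), class A left and class B right of the line, with a point for each of the 2 control and 2 Dnmt1 KO libraries and a bar at each group mean. Epha5 sits at 3177 and 3129 in control against 5518 and 5479 in Dnmt1 KO, while both Dnmt1 KO libraries lie below both control libraries for Ephb1, Ephb4 and Epha2.

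The libraries held between 6970247 and 8376711 reads assigned to genes, and Eph receptors took 0.118% to 0.152% of them. Sst, the neuropeptide whose locus drives Cre, stood at 5580.4 and 5963 normalized counts in control and at 8303 and 7825 in Dnmt1 KO. Of 10 markers of MGE-derived Sst interneurons, 9 rose, Nkx2-1 did not pass the test, and their summed level went from 19120 and 19631 to 30300.2 and 30733. Markers of other cells were also present: 8 of 9 tested endothelial genes fell (summed level 602 and 600.3 in control, 243 and 263 in Dnmt1 KO), and 8 of 11 progenitor genes fell while Sox2 rose (14699 and 14812 against 9289.6 and 9497). Pallial excitatory, striatal and microglia or blood markers fell in 7 of 8, 5 of 7 and 5 of 6 tested genes, with 1 striatal gene higher. The interneuron, endothelial and progenitor lists had a value above 0 for every gene in every library. Dnmt1 itself stood at 2238 and 2341 in control and at 2164 and 2210.3 in Dnmt1 KO (log2 fold change -0.07, SE 0.054, limma adjusted p = 0.461), a whole-gene count that does not separate the floxed exons. In bulk RNA of this kind, fewer cells of a type and less RNA per cell cannot be told apart.

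Epha5, a guidance receptor that takes part in laying out topographic axon projections in the forebrain, was the most abundant member and the one with the smallest adjusted p. Control libraries gave 3177 and 3129 normalized counts, and Dnmt1 KO libraries 5518 and 5479. The groups lay far apart and the libraries within each group close together, at 3153 ± 33.8 (SD, n = 2) against 5499 ± 27.1 (SD, n = 2). The log2 fold change was 0.80 (SE 0.045, 95% interval 0.71 to 0.90, limma adjusted p = 2.41e-08), a 1.74-fold rise. The gene (ENSMUSG00000029245) spans chr5:84202620-84565348 on the minus strand of GRCm39, 362729 bp, against a median of 28712 bp over 12278 tested protein-coding genes, and genes of its transcript length and GC content had a fitted difference of 0.10 on the log2 scale. With that trend removed, the log2 fold change was 0.70.

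The Epha5 rise stood beside higher interneuron markers. As a percentage of the summed level of the 10 interneuron markers in the same library, Epha5 was 16.6% and 15.9% in control and 18.2% and 17.8% in Dnmt1 KO. Relative to Sst alone it was 56.9% and 52.5% against 66.5% and 70.0%, with no overlap between the genotypes. Relative to Sox6, a transcription factor of MGE interneurons with a log2 fold change of 0.80, it was 131% and 119.5% against 128% and 123%, so the genotypes overlapped on that scale. Relative to Lhx6, another such factor, it was 117% and 116.8% against 129% and 117.2%, 1 knockout library level with the controls. Maf and Erbb4, also on the list, rose more than Epha5, with log2 fold changes of 1.12 and 1.08. Gad1, Gad2, Dlx5 and Satb1 rose less (0.63, 0.53, 0.38 and 0.41), and Nkx2-1 did not pass the test. The direction of Epha5 relative to a single marker thus depended on the marker chosen. The ratios were chosen after the values were seen, and the part of cell composition in the Epha5 rise was not tested.

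Epha3, a receptor that binds ephrin-A ligands and is known from the mapping of retinal axons, rose by a small amount. It stood at 1076 and 1097 in control and at 1293 and 1228 in Dnmt1 KO, with no overlap. The log2 fold change was 0.21 (SE 0.065, 95% interval 0.07 to 0.35, limma adjusted p = 0.0343). It passed the threshold under 9 of 17 other settings and lost the call in limma without control 1 (log2 fold change 0.20, adjusted p = 0.115), without control 2 (0.23, 0.0757) or without Dnmt1 KO 1 (0.18, 0.212). A fit without a library leaves 1 library in that genotype, which is assumed to vary like the libraries of the other. With the trend on transcript length and GC content removed, its log2 fold change was 0.14 (adjusted p = 0.157). As a percentage of the interneuron marker sum, Epha3 was lower in Dnmt1 KO, at 4.27% and 4.00% against 5.63% and 5.59% in control, the opposite direction from its normalized count.

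The other 3 tested class A receptors had higher values in both Dnmt1 KO libraries but did not pass the test. Epha8, known from axon guidance in the midbrain, stood at 80.5 and 109 in control and at 151 and 123 in Dnmt1 KO. Its log2 fold change of 0.54 was the largest of the 3 (SE 0.19, 95% interval 0.13 to 0.94, limma adjusted p = 0.0646), and it passed the threshold under 5 of 17 other settings. Epha7, which takes part in the sorting of corticothalamic axons, stood at 339 and 410.4 in control and at 434 and 439 in Dnmt1 KO, so most of its spread was between the control libraries. Its log2 fold change was 0.23 (95% interval 0.0017 to 0.45, limma adjusted p = 0.162). Epha4, which binds both ephrin classes and is known for repulsion of migrating MGE interneurons, stood at 1245 and 1171 in control and at 1265 and 1337 in Dnmt1 KO. The nearest control and Dnmt1 KO libraries lay closer together than the libraries within either group (log2 fold change 0.11, 95% interval -0.03 to 0.25, limma adjusted p = 0.303).

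Epha2, a receptor of epithelial tissues, was the rarest member. It had 13 and 10 reads in control and 3 and 0 in Dnmt1 KO, or 11.6, 10.2, 2.96 and 0 normalized counts, and with a mean of 6.20 it fell below the filter. Pooled over libraries, the ratio of Dnmt1 KO to control was 0.142 (exact 95% interval 0.0273 to 0.469, covering counting error only). When the filter was lowered to a mean of 1 the limma adjusted p was 0.0313, and with no filter it was 0.058. The 0 reads of Dnmt1 KO 2 allow up to 3.28 normalized counts, taking 3 reads as the limit.

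**Figure D2:**
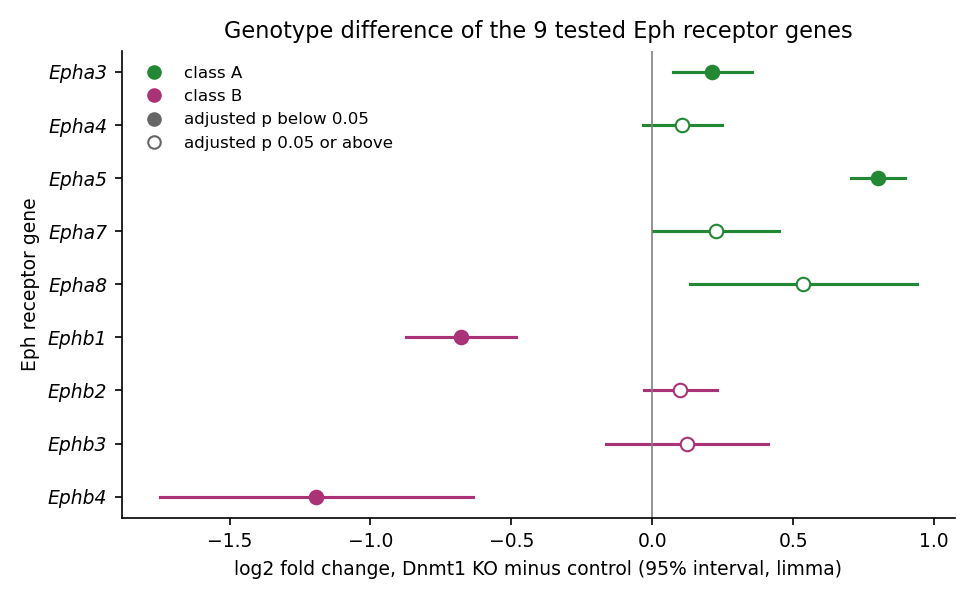
Log2 fold change (horizontal axis, Dnmt1 KO minus control) of the 9 tested Eph receptor genes (vertical axis), with the limma 95% interval as a line and filled points where the adjusted p was below 0.05, class A in green and class B in purple. The intervals of Epha5 and Epha3 lie above 0 and those of Ephb1 and Ephb4 below it, while Epha8 and Epha7, whose intervals also lie above 0, missed the threshold after adjustment.

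Ephb1, known for turning retinal axons away from the midline at the optic chiasm, fell in Dnmt1 KO. It stood at 597 and 578 normalized counts in control and at 349 and 385 in Dnmt1 KO. Both knockout libraries lay well below both control libraries (587 ± 13.5 against 367 ± 25.0, SD, n = 2 each). The log2 fold change was -0.68 (SE 0.092, 95% interval -0.87 to -0.48, limma adjusted p = 0.000114), a ratio of 0.625. The gene (ENSMUSG00000032537) is at chr9:101799327-102231898 on the minus strand and, at 432572 bp, has the longest span of the 10 receptors. Ephb1 and Epha5, the receptors with the longest spans, thus moved in opposite directions. Genes of the transcript length and GC content of Ephb1 had a fitted difference of -0.11 on the log2 scale. With that trend removed, the Ephb1 log2 fold change was -0.57.

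The Ephb1 fall stood beside lower progenitor, striatal and pallial markers. Relative to the summed level of 11 progenitor markers, Ephb1 was 4.06% and 3.90% in control and 3.76% and 4.05% in Dnmt1 KO, so the genotypes overlapped on that scale. Relative to the summed striatal markers it was 18.5% and 17.5% against 14.8% and 16.8%, and relative to the pallial sum 20.8% and 19.8% against 22.0% and 27.2%. Against the interneuron sum it fell further, from 3.12% and 2.94% to 1.15% and 1.25%. The direction of Ephb1 thus depended on the markers it was set against. The ratios were chosen after the values were seen, and the part of cell composition in the fall was not tested.

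Ephb4, the venous endothelial receptor of ephrin-B2, had the largest fold change of the tested receptors. It stood at 115 and 107 normalized counts in control and at 66.1 and 35.0 in Dnmt1 KO. Both Dnmt1 KO libraries lay below the controls, and they also lay apart from each other, with exact Poisson 95% intervals of 51.2 to 83.9 and 23.9 to 49.4 that cover counting error only. The log2 fold change was -1.19 (SE 0.26, 95% interval -1.75 to -0.64, limma adjusted p = 0.00509). Without control 1 the adjusted p was 0.0565, and without Dnmt1 KO 2 the log2 fold change was -0.74, against -1.64 without Dnmt1 KO 1. The gene (ENSMUSG00000029710) is at chr5:137348274-137376931 on the plus strand.

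The summed endothelial level in Dnmt1 KO was 0.421 of that in control, beside a ratio of 0.454 for Ephb4. The defining genes Pecam1 and Cdh5, adhesion proteins of endothelial junctions, had log2 fold changes of -1.27 and -1.72, and the median of the 9 tested endothelial genes was -1.25. As a percentage of the summed endothelial level, Ephb4 was 19.2% and 17.9% in control and 27.2% and 13.3% in Dnmt1 KO, so the knockout libraries lay on either side of the controls. Epha2 was 1.93% and 1.70% of the same sum in control and 1.22% and 0 in Dnmt1 KO. The part of endothelial RNA in the fall of Ephb4 was not tested.

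The other class B receptors did not pass the test. Ephb2, known from commissural axon guidance and from its contact with NMDA receptors at synapses, stood at 2035 and 2193 in control and at 2168 and 2361 in Dnmt1 KO. Its groups overlapped (log2 fold change 0.10, 95% interval -0.03 to 0.23, limma adjusted p = 0.301). Ephb3, which acts with Ephb2 in commissural axons, stood at 163 and 167 in control and at 184 and 176 in Dnmt1 KO. The groups did not overlap, but the difference was small for a gene of this level (log2 fold change 0.12, 95% interval -0.16 to 0.41, limma adjusted p = 0.588). The data thus bound any rise of Ephb2 more tightly than one of Ephb3.

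Counted by library order alone, both Dnmt1 KO libraries lay above both control libraries for 6 of the 9 tested receptors (the 5 class A genes and Ephb3) and below them for 2 (Ephb1 and Ephb4), against 28.4% and 29.0% of all genes tested.

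**Figure D3:**
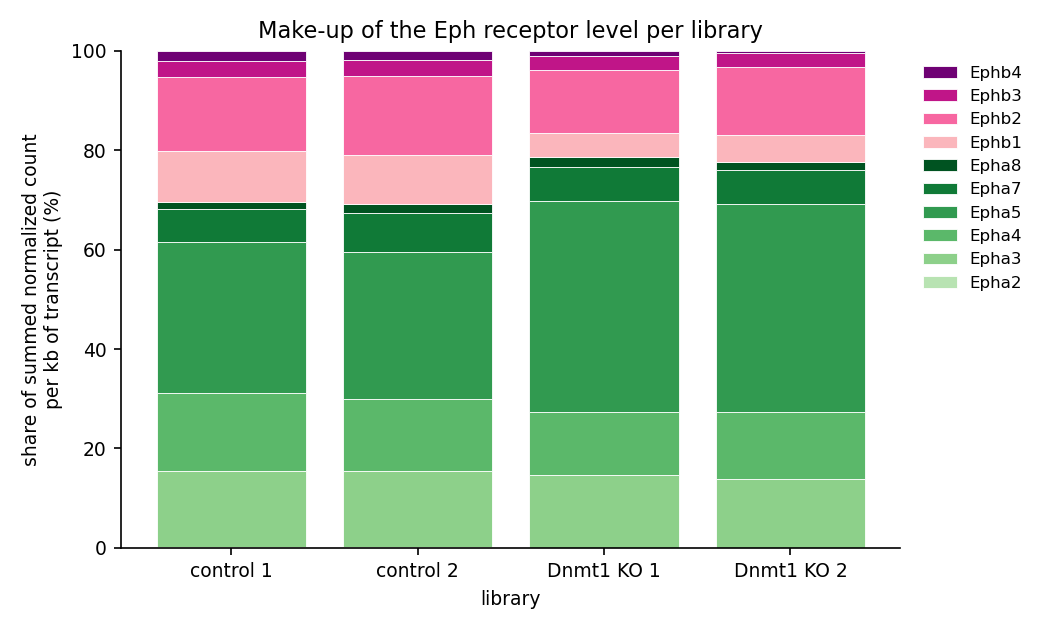
Share (%) of each of the 10 Eph receptor genes in their summed normalized count per kb of transcript (vertical axis), as stacked bars for each of the 4 libraries (horizontal axis), class A in greens and class B in pinks. Class A takes 69.5% and 69.2% in control and 78.6% and 77.7% in Dnmt1 KO.

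Levels were compared between genes as normalized counts per kb of the annotated transcript with the longest coding sequence. In control, Epha5 led at 376 ± 4.02 (SD, n = 2) per kb. Ephb2 (193), Epha3 (191) and Epha4 (188) followed and were not separated from each other across the libraries, and then came Ephb1 (126), Epha7 (90.9), Ephb3 (39.4), Ephb4 (25.4), Epha8 (19.8) and Epha2 (2.78), each apart from the next in every library. In Dnmt1 KO, Epha5 stood at 656 ± 3.24 per kb, ahead of Epha3 (222), Ephb2 (207) and Epha4 (203), the last pair not separated. Ephb1 (78.5 per kb) had dropped below Epha7 (106), and Ephb4 (11.5) below Epha8 (28.7). The order of Ephb1 and Epha7 depended on the transcript chosen. Per kb of the longest transcript, Ephb1 stayed above Epha7, at 125 against 49.8 in control and 78.2 against 58.0 in Dnmt1 KO.

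Summed per kb, class A stood at 864 and 874 in control and at 1220.0 and 1210.1 in Dnmt1 KO, and class B at 379 and 388 against 332 and 348. Neither class overlapped between the genotypes per kb, and the ratio of class A to class B went from 2.28 and 2.25 to 3.68 and 3.48. Epha5 alone went from 30.5% and 29.6% of the family level to 42.4% and 41.9%, and Ephb1 from 10.3% and 9.80% to 4.82% and 5.28%. As normalized counts not divided by length, the class B sums overlapped, at 2910.1 and 3045 in control and 2768 and 2957 in Dnmt1 KO. These sums follow from the member values above and were given no test. Within class A, Epha5 had the largest difference per kb, from 376 to 656. Within class B, Ephb1 fell while Ephb2, the most abundant gene of the class, had a positive fold change.

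The promoters of the 3 receptors with the largest changes among those called are printed here because Dnmt1 acts on CG pairs. Each is the 300 bases from 250 before to 50 into the annotated transcript start on GRCm39, 5′ to 3′ on the strand of the gene, with CG pairs in capitals. The CG pair reads the same on both strands.
Epha5, chr5:84565299-84565598, minus strand: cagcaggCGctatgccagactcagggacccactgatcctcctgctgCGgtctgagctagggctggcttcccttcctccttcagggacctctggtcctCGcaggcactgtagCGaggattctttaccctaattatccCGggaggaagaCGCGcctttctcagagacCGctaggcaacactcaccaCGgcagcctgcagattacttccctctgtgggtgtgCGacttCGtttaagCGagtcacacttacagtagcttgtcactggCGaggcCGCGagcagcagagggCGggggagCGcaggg
Ephb1, chr9:102231849-102232148, minus strand: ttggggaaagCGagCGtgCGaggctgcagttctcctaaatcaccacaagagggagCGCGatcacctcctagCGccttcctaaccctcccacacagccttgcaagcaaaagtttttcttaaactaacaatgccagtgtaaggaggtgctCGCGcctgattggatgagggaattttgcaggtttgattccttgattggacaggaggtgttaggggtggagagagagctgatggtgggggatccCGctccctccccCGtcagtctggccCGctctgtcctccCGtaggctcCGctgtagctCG
Ephb4, chr5:137348108-137348407, plus strand: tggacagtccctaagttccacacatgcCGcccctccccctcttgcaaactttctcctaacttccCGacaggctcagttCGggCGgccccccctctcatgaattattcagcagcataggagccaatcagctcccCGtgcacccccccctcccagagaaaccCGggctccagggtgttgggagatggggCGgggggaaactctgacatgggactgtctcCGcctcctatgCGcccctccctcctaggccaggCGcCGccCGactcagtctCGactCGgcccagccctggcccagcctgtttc
The Epha5 window held 17 CG pairs and the Ephb1 and Ephb4 windows 14 each. Over the promoters of 12278 tested protein-coding genes the median was 18, and 99.6% held at least 1 CG pair. At least as many as in Epha5 were found in 55.5% of these promoters, and at least as many as in Ephb1 or Ephb4 in 66.5%. Among all 10 receptors the count ran from 10 in Epha2 to 49 in Epha8, a count that 0.904% of promoters reached or exceeded, with medians of 17.5 in class A and 16.5 in class B. The receptor that rose and those that fell thus had CG counts close to each other and to the median gene. All 10 windows shared sequence with the RefSeq promoter of the same gene, and DNA methylation was not analysed here.

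Exons of 6 receptors overlap a gene on the opposite strand. The libraries were made with a stranded total RNA kit, while the strand setting of the counting is not given in the sources used here. Where the overlapping gene was in the table its level was low: Zan, which overlaps Ephb4, had 0 and 2.04 normalized counts in control and 0.986 and 1.09 in Dnmt1 KO. Gm57054, which overlaps Ephb1, had 0 in all 4 libraries, and Gm28386, which overlaps Epha4, had at most 3.95. The genes overlapping Epha5, Ephb2 and Epha2 were not in the table, nor was Gm52791, another gene that overlaps Ephb4. Their levels are therefore unknown.

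The 4 Eph genes outside the list did not pass the test or the filter. Epha6 stood at 48.3 and 49.0 in control and at 89.8 and 67.7 in Dnmt1 KO (log2 fold change 0.67, SE 0.23, limma adjusted p = 0.0598). Both Dnmt1 KO libraries lay above the controls, as for 28.4% of all genes tested. Ephb6, a receptor without kinase activity, stood at 191 and 183 against 224 and 190.1, and its libraries overlapped (limma adjusted p = 0.52). Epha10 had 3.58 and 9.19 normalized counts in control and 3.95 and 8.74 in Dnmt1 KO, and Epha1 had 1 and 5 reads in control and 0 in each Dnmt1 KO library. Among the class A genes below the filter, Epha2 was thus lower in both Dnmt1 KO libraries, while Epha10 overlapped. For Epha1 no lower level can be read, since control 1 lay below the 3 reads taken as the limit. With the filter lowered to a mean of 1, its limma adjusted p was 0.281.

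On the ligand side, 1 of 7 tested ephrin genes rose and the other 6 did not pass the limma test. Over all genes tested 8.30% rose and 17.3% changed in either direction, so this count is no result about the ephrins. The gene that rose was Efnb2, the ligand of Ephb4 and of other class B receptors and Epha4, at 1953 and 2004 normalized counts in control and at 2617 and 2515 in Dnmt1 KO (log2 fold change 0.37, SE 0.054, limma adjusted p = 0.000196). The median log2 fold change of the 7 ephrins was 0.0046. Efnb2 thus rose where its receptor Ephb4 fell. In the same libraries the median log2 fold change was 0.58 for interneuron markers and -1.25 for endothelial markers. The part of cell composition in either change was not tested.

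Of 36 genes for proteins known to work with Eph receptors or ephrins inside the cell, all tested, 5 rose and 1 fell, with a median log2 fold change of 0.03. Grip1 and Grip2, scaffold proteins that bind the tails of ephrin-B ligands and of AMPA receptors, rose most. Grip1 stood at 694 and 686 in control and at 1132 and 1090.4 in Dnmt1 KO (log2 fold change 0.69, limma adjusted p = 8.59e-06), and Grip2 at 210.3 and 203 against 299 and 310.3 (0.56, 0.00327). Vav2, a signalling protein that Eph receptors recruit, rose by 0.36 on the log2 scale (limma adjusted p = 0.00863), and Fyn, a Src family kinase, by 0.20 (0.0266). Inppl1, the lipid phosphatase SHIP2 that binds the EphA2 tail, stood at 200.5 and 222 in control and at 122 and 114 in Dnmt1 KO (log2 fold change -0.83, limma adjusted p = 0.000905). The 6 called of 36 stood near the 17.3% called over all genes tested, so the count is no result about these partners.

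**Figure D4:**
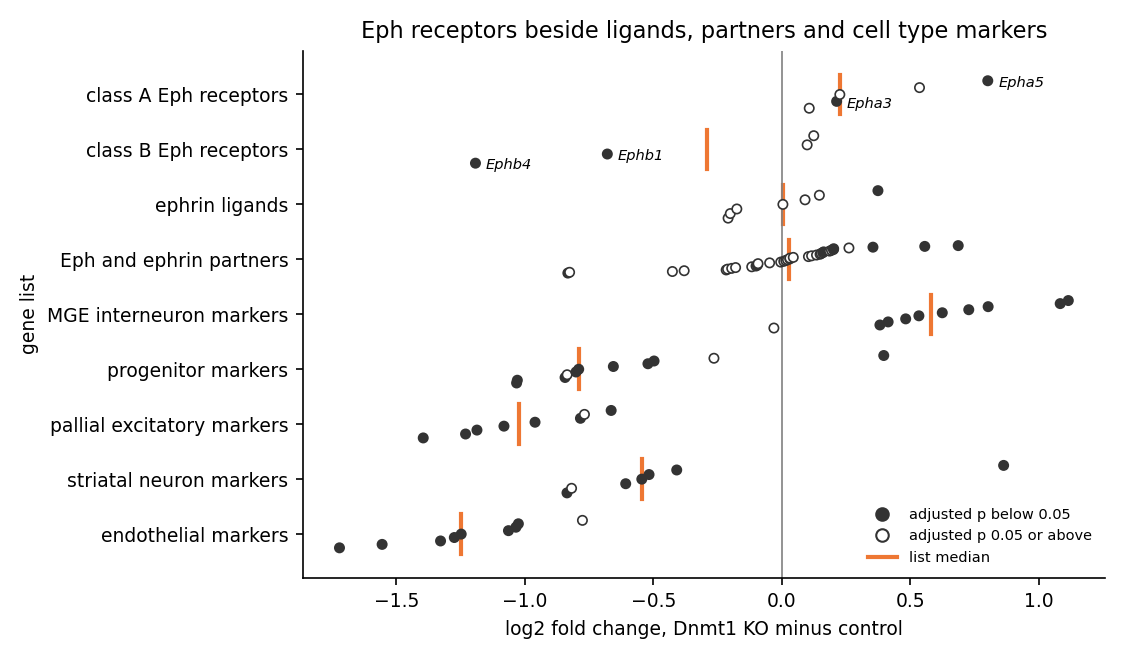
Log2 fold change (horizontal axis, Dnmt1 KO minus control) of each tested gene in 9 lists (vertical axis), a point a gene, filled where the limma adjusted p was below 0.05, with the list median as an orange line. The medians are 0.23 for class A and -0.29 for class B receptors, 0.58 for interneuron markers, -1.02 for pallial markers and -1.25 for endothelial markers. Ephb4, at -1.19, lies between the endothelial and the pallial median.

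Across 17 other settings of the analysis, no fold change of the 9 tested receptors changed sign. Epha5 ranged from 0.70 to 0.81 on the log2 scale, Ephb1 from -0.75 to -0.57 and Ephb4 from -1.64 to -0.74. Epha5 and Ephb1 passed the threshold under 16 of the 17 settings and Ephb4 under 15, while Epha4, Epha7, Ephb2 and Ephb3 passed under none of them. The exception for Epha5 and Ephb1 was limma without the variance trend, under which no gene of all those tested passed (3339 at an unadjusted p under 0.05, against 1317 called by DESeq2 and 2528 by edgeR). Epha3 (past the threshold under 9 of 17) and Epha8 (under 5 of 17) moved across it most often.

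**Figure D5:**
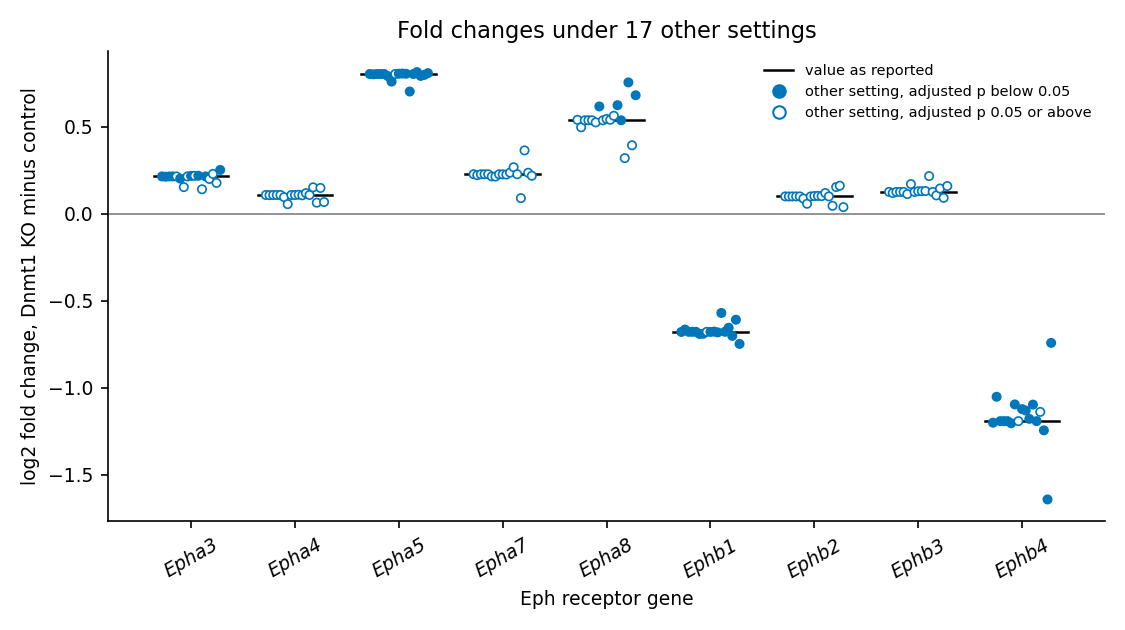
Log2 fold change (vertical axis, Dnmt1 KO minus control) of the 9 tested Eph receptor genes (horizontal axis) under 17 other settings, a point a setting, filled where the adjusted p was below 0.05, with the value as reported as a black line. Points of Epha5 and Ephb1 stay close to their line, while those of Ephb4 run from -1.64 to -0.74 and Epha8 from 0.32 to 0.75.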

How the data were processed

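The deposited table held normalized counts, a signal that the authors made by trimming reads with Trim Galore, aligning them to GRCm39 with STAR, quantifying genes with Salmon and dividing each library by a DESeq2 (version 1.32.0) size factor. The libraries were made with a stranded total RNA kit, and the strand setting of the counting is not given in the sources used here. Of 89965 values above 0, 100% were whole multiples of 1 count's worth in their library (tolerance 1e-04). Whole counts were therefore recovered for count tests, and they are called reads here. Whether the Salmon values had been rounded to whole counts is not given in the sources used here. Genes with a mean of at least 10 (14323 of 56883) were tested with limma 3.58.1 (eBayes with trend) on log2(normalized count + 1), genotype as the term, in R 4.3.3, with Benjamini-Hochberg adjustment over all genes tested and a threshold of 0.05. The limma steps were tested on simulated counts whose spread depended on the level of the gene alone. That test cannot show how the fit behaves where genes of like level differ in spread. Fold changes are on the log2(normalized count + 1) scale and understate the change of low genes. Alternatives were other pseudocounts, filters and scalings, edgeR 4.0.16, DESeq2 1.42.0, limma-voom, removal of a length and GC trend, a replicate block and leaving out each library.

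The members, marker lists and lists of ligands and partners were chosen with earlier results of these data known. All 10 members and the 4 other Eph genes are named, with called ephrins, up to 4 called partners in each direction with the largest fold changes, and markers that a member result touches. Replicates are pools of embryos, so p-values refer to pools and not to single embryos. With 2 libraries a genotype, the limma variance of a gene was drawn largely from genes of like level. The p-values thus do not measure the spread of each gene between its own pools. For Epha5 the SE was 0.045 with the variance trend and 0.086 without it. Positions and transcript lengths are from GENCODE vM39 on GRCm39, and an exact permutation test was not used because 2 libraries against 2 cannot reach the threshold.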

Additional observations from a re-analysis of the deposited data

How the results depend on the processing

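Of 261 recomputed values, 216 kept their direction and their side of the threshold, 12 lost the threshold, 5 passed it, 28 moved further than the replicate spread or 1.5 times, and 0 reversed. Receptors called higher numbered 2, against 1 with no filter on low values or with DESeq2, 0 in limma without the variance trend, 3 with the replicate block, and 1 to 3 leaving out a library (1 without control 1 or without Dnmt1 KO 1, 3 without Dnmt1 KO 2). Receptors called lower numbered 2, against 0 without the variance trend, 3 with a mean of at least 1 and 1 to 2 leaving out a library (1 without control 1). Without the variance trend, no gene passed (0 higher, 0 lower), with limma adjusted p of 0.0616 for Epha5 (0.80), 0.0741 for Ephb1 (-0.68), 0.161 for Ephb4 (-1.19) and 0.268 for Epha3 (0.21). Epha3 also lost its call with no filter (0.21, adjusted p = 0.0681), quantile normalization (0.15, 0.13), DESeq2 (0.22, 0.125) and the length and GC trend removed (0.14, 0.157), and ranged from 0.18 to 0.25 leaving out a library. Ephb4 ranged from -1.64 to -0.74. Other signalling genes called higher numbered 6, against 0 without the variance trend, 3 with DESeq2 and 11 with the length and GC trend removed, and those called lower 1, against 0 without the variance trend, 3 with the length and GC trend removed, and 2 with a mean of at least 50, quantile normalization, limma-voom or the replicate block (1 to 2 leaving out a library). Over all genes, 1189 rose and 1287 fell, against 634 and 683 with DESeq2 and, leaving out a library, 787 to 959 and 738 to 1246, with 787 higher and 738 lower without control 2 and 787 lower without control 1. With the length and GC trend removed, 57.4% of calls were higher, against 48.0%. The summed class A level differed by 0.48 on the log2 scale, against 0.54 not divided by length, 0.50 with the longest transcript and 0.47 with TMM scaling, and class B by -0.17, against -0.058 not divided by length. The cause of these moves was not tested, beyond the fewer libraries or genes in a fit.

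What the numbers of the replicates mark is not given, so no pairing was used in the main fit. Over genes, the deviations of same-numbered libraries correlated at -0.08. That value cannot show whether same-numbered pools shared a litter or a day. With a replicate block, 2957 genes passed, 1402 higher and 1555 lower, Epha8 at 0.54 (limma adjusted p = 0.0218) among them. The smallest limma adjusted p of that fit was 3.77e-94, a size that rests on variance shared over genes and not on 4 libraries. Fits without a Dnmt1 KO library share that limit, so calls under these settings add little. The 2 libraries a genotype and the low reads of Epha2 and Ephb4 limit what can be seen for these genes.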
